A study of Homo sapiens with 8 samples.

Results

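Integrins are cell surface receptors made of 1 alpha and 1 beta subunit, and laminins are the trimeric basement membrane proteins, with 1 alpha, 1 beta and 1 gamma chain, that several of these receptors bind. Their RNA levels were examined in MDA-MB-231 cells, an established human breast cancer line, in which arginine starvation and the loss of mitochondrial DNA were combined. All gene symbols of the deposited table that name an integrin alpha or beta subunit, or a laminin alpha, beta or gamma chain, were collected, which gave 38 symbols. The 31 of them with at least 10 counts in 2 or more libraries were kept, out of 23393 genes in the table. They comprised 20 integrin genes, of which 13 encode alpha and 7 encode beta subunits, and 11 laminin genes. ITGA4, ITGA8, ITGA11, ITGAD, ITGAL, ITGB6 and LAMC3 did not reach the count minimum. All 31 genes were among the 15262 that were tested.

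The 8 libraries formed 4 groups of 2. Parental cells and ρ0 cells, a derivative depleted of mitochondrial DNA with ethidium bromide, were each sequenced in full medium (control) and after 48 h of arginine starvation. The labels give high-glucose DMEM with serum as the growth medium of all groups, whereas the methods add pyruvate, uridine and continued ethidium bromide for the ρ0 line. Per the labels, starved cells received arginine deiminase (0.3 µg/mL), which breaks arginine down, in their usual medium, whereas the methods describe culture without arginine. The ρ0 cells were a single clone, number 27, so that what belongs to the loss of mitochondrial DNA, to the clone and to these additions cannot be told apart. Nothing in the labels says that the replicates were separate cultures, and p-values therefore measure the spread between these libraries, which may be technical.

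The alpha subunit sets much of the ligand choice of an integrin. ITGA1, ITGA2 and ITGA10 encode collagen-binding subunits, ITGA3, ITGA6 and ITGA7 laminin-binding subunits, and ITGA5 and ITGAV subunits that bind fibronectin and vitronectin. ITGB1 pairs with most alpha subunits, whereas ITGB4 pairs with ITGA6 in hemidesmosomes, the junctions that tie epithelial cells to laminin. LAMA3 and LAMB3 encode chains of epidermal laminin, a ligand of the receptors that contain ITGA3 or ITGA6.

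Each library held between 25259503 and 31022155 counts, and the 31 genes took 0.670% and 0.641% of them in parental control cells, 0.457% and 0.443% in starved parental cells, 1.11% and 0.767% in ρ0 control cells, and 1.36% in both starved ρ0 libraries. The 2 ρ0 control libraries stood apart from each other, and their biological coefficient of variation was 25.1%, compared with 1.84% to 5.16% in the other groups. This spread was wider among the 31 genes than in general. Their median absolute difference between the 2 ρ0 control libraries was 0.61 on the log2 scale, against 0.26 over all tested genes. In the other groups that median was 0.03 to 0.08. In ρ0 control cells 21 of the 31 were higher in replicate 1, against 48.9% of all tested genes. The count was also 21 in parental control cells. Given the spread of the ρ0 control libraries, comparisons with ρ0 control cells were repeated for the 31 genes without each of these libraries. The single library left was then assumed to vary like the other groups. All groups shared 1 estimate of the spread, so the ρ0 control libraries also bore on the tests in parental cells. The closer libraries of the other groups likewise bore on the tests in ρ0 cells. Of the line's defining markers, VIM averaged between 531 and 3283 CPM (counts relative to library size, after TMM scaling) over the 4 groups and CD44 between 522 and 1468, whereas ESR1 averaged at most 0.142 CPM. ERBB2, which was also taken as low or absent in this line, averaged between 30.3 and 86.8 CPM. EPCAM and CDH1, which encode epithelial adhesion proteins, averaged 0.47 and 0.03 CPM in parental control cells and 23.1 and 15.0 CPM in ρ0 control cells, and their part in the results on ρ0 cells was not tested.

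**Figure D1:**
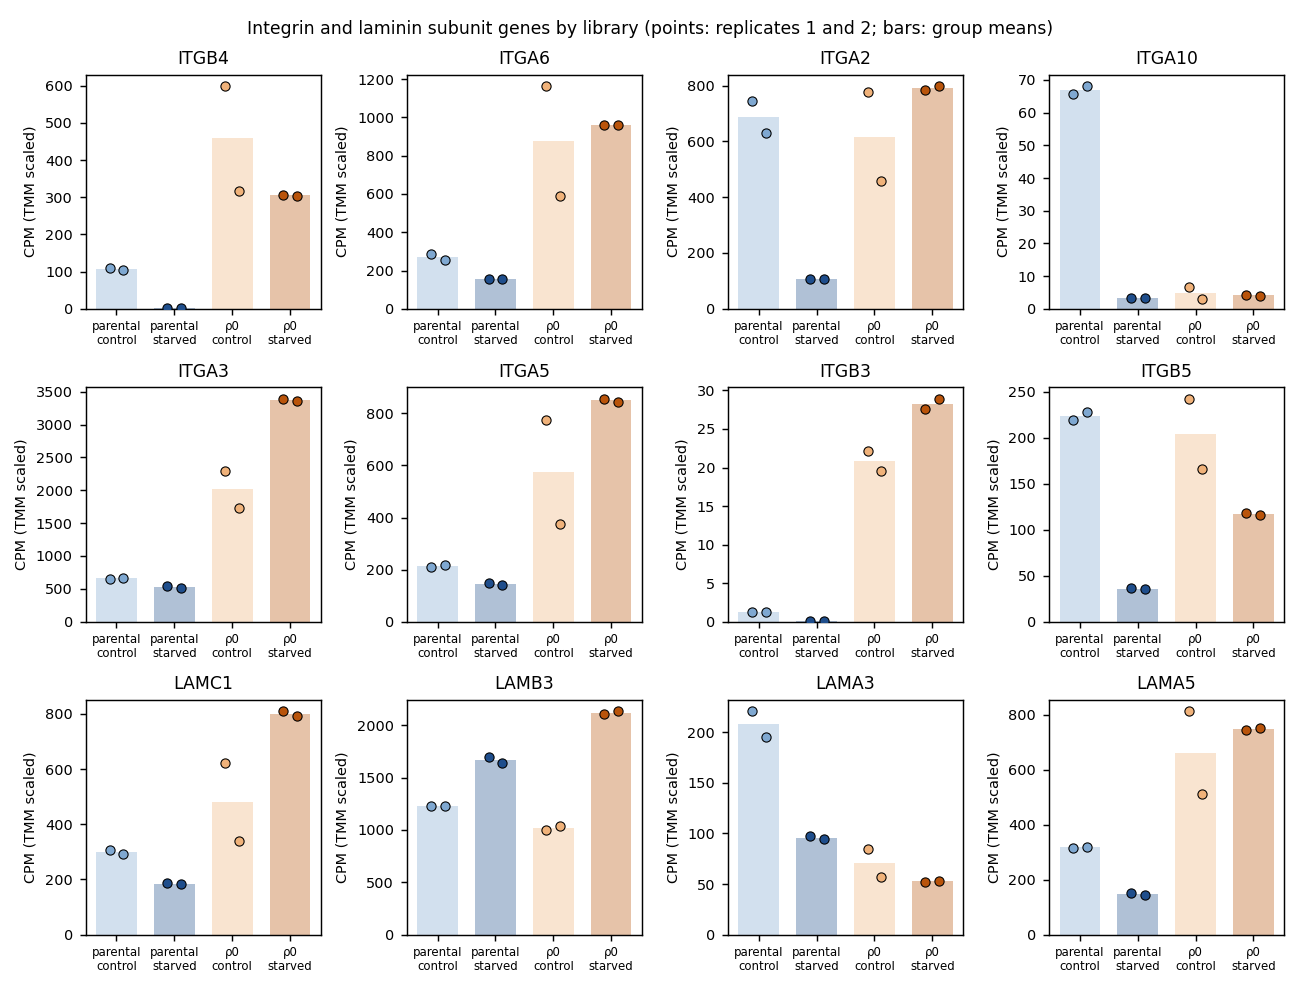
Levels of 12 integrin and laminin genes in CPM on a linear axis from 0, with a point for each of the 8 libraries and a bar for the mean of each group of 2. ITGB4 dropped from 109 and 104 CPM in parental control cells to 2.53 and 1.98 CPM in starved parental cells, and LAMB3 reached 2110 and 2133 CPM in starved ρ0 cells.

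The first comparison asked how parental cells changed over 48 h of arginine starvation. Of the 31 genes, 20 fell, 3 rose and 8 did not pass the test at an adjusted p under 0.05 (edgeR's quasi-likelihood test, Benjamini-Hochberg adjustment over all tested genes). Over all tested genes, 35.5% fell and 30.4% rose. A DEG must also pass a fold criterion, an absolute log2 fold change over 1, which 17 of the lower genes met and the 3 higher ones did not. The median log2 fold change of the 31 genes was -1.12, against -0.07 over all tested genes. It was -0.95 without the 3 genes that had 3 counts or fewer in both starved libraries. The control and starved libraries did not overlap for 30 of the 31 genes, as for 89.2% of all tested genes. By class, 13 integrin genes fell and 1 rose, and 7 laminin genes fell and 2 rose. The ρ0 control libraries entered the shared estimate of the spread here too. Where the parental groups were fitted alone, ITGA3, ITGA5 and LAMB1 were called lower as well, and ITGB1 higher. The same held with limma-voom weighted by group. In bulk RNA, fewer cells of a type and less RNA per cell cannot be told apart.

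The 3 collagen-binding alpha subunits all fell in starved parental cells. ITGA2, the more abundant of them, measured 745 and 629 CPM in the control libraries and 109 and 107 CPM in the starved libraries, a fall by 2.67 on the log2 scale (SE 0.23, adjusted p = 5.59e-05). ITGA10 went from 65.7 and 68.2 CPM to 3.17 and 3.15 CPM, a 20.7-fold fall (log2 -4.37, SE 0.31, adjusted p = 2.57e-05). ITGA1 went from 57.9 and 53.4 CPM to 9.66 and 9.25 CPM (log2 -2.55, SE 0.33, adjusted p = 0.000352). Part of the ITGA1 transcript, 4.42% of its exonic bases, is shared on the same strand with PELO, a gene for a ribosome rescue factor, so reads there could belong to either gene.

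The laminin-binding alpha subunits had unlike fold changes in starved parental cells, which were not tested against one another. ITGA3, the most abundant integrin alpha subunit in every group per kilobase of transcript, had 654 and 671 CPM in control and 550 and 510 CPM in starved libraries, which did not pass the test (log2 -0.32, SE 0.13, adjusted p = 0.0631). ITGA6 fell from 286 and 255 CPM to 154 and 156 CPM (log2 -0.80, SE 0.27, adjusted p = 0.0316). ITGA7, which pairs with ITGB1 in muscle, fell from 7.94 and 8.02 CPM to 0.633 and 0.496 CPM, by 3.67 on the log2 scale (SE 0.32, adjusted p = 5.95e-05). The fall of ITGA6 was no longer past the threshold when any 1 of the parental or starved ρ0 libraries was left out, where its adjusted p reached up to 0.138.

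The subunits for fibronectin and vitronectin did not pass the test. ITGA5, the alpha subunit of the classical fibronectin receptor, had 211 and 217 CPM in control and 149 and 142 CPM in starved cells (log2 -0.55, SE 0.28, adjusted p = 0.120), and ITGAV had 168 and 139 against 138 and 138 CPM (adjusted p = 0.482). ITGA9, a receptor subunit for tenascin, fell from 3.69 and 2.74 CPM to 1.23 and 1.52 CPM (log2 -1.18, SE 0.26, adjusted p = 0.00523), a call that was lost without parental control replicate 1 or parental starved replicate 1. ITGAE, which with ITGB7 binds E-cadherin, was the 1 integrin gene that rose, from 18.4 and 20.0 CPM to 24.9 and 29.1 CPM (log2 0.49, SE 0.13, adjusted p = 0.0108). Without parental control replicate 1, and without parental starved replicate 2, ITGAE did not pass the test.

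Of the alpha subunits best known from blood cells, ITGAX was clearly detected in parental control cells, and ITGAM and ITGA2B were near the limit of detection. ITGAX, an alpha subunit of myeloid cells, fell from 17.4 and 16.2 CPM to 0.831 and 0.638 CPM in starved parental cells (log2 -4.40, SE 0.24, adjusted p = 2.18e-05). ITGAM, its close relative, had 53 counts in the 2 control libraries together and 4 in the 2 starved libraries, which at these depths is 11.4-fold lower with a 95% counting interval of 4.20 to 43.4. ITGA2B, the platelet fibrinogen receptor subunit, had 30 and 3 counts, an 8.60-fold difference with an interval of 2.68 to 44.1. The leukocyte marker PTPRC stayed at or below 0.45 CPM in all 4 groups. ITGAM and ITGA2B reached 10 counts in both libraries of parental control cells only, so that their choice by the count minimum rests on the group in which they were high.

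Among beta subunits, ITGB4 fell the most and ITGB1 did not pass the test. ITGB4, the hemidesmosomal partner of ITGA6, went from 109 and 104 CPM to 2.53 and 1.98 CPM, a 45.8-fold fall and the largest of the 31 genes (log2 -5.52, SE 0.34, adjusted p = 1.53e-05). ITGB5, which with ITGAV forms a vitronectin receptor, fell from 219 and 228 CPM to 36.4 and 35.1 CPM (log2 -2.64, SE 0.17, adjusted p = 1.74e-05). ITGB8, which with ITGAV binds latent TGF-β, fell from 11.2 and 9.13 CPM to 0.871 and 1.20 CPM (log2 -3.20, SE 0.51, adjusted p = 0.000979). ITGB3 was low in parental cells, at 1.29 and 1.28 CPM in control and 0.119 and 0.106 CPM in starved libraries, which is 80 against 6 counts and an 11.5-fold difference with a counting interval of 5.04 to 32.2. ITGB1 had 941 and 853 CPM in control and 1007 and 1015 CPM in starved cells (log2 0.17, SE 0.20, adjusted p = 0.472). ITGB2, the leukocyte beta subunit, had 5.34 and 5.07 against 5.70 and 6.73 CPM (adjusted p = 0.469), and ITGB7 was under 1 CPM in all 4 parental libraries. ITGB3 and ITGB7 share 51.6% and 51.4% of their exonic bases with other protein-coding genes, ITGB3 on the same strand with AC068234.1 and ITGB7 on the opposite strand with ZNF740, and whether the counting used strand is not given in the sources used here, so both are uncertain.

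The epidermal laminin chains LAMA3 and LAMB3 moved in opposite directions in starved parental cells. LAMA3, an alpha chain, fell from 221 and 196 CPM to 97.2 and 94.2 CPM (log2 -1.12, SE 0.17, adjusted p = 0.000777). LAMB3, a beta chain and the most abundant laminin gene per kilobase, rose from 1225 and 1233 CPM to 1701 and 1642 CPM (log2 0.44, SE 0.08, adjusted p = 0.00141). The upstream sequences of LAMA3 and LAMB3 are shown because these were the genes of the set whose 250 bases before a RefSeq start held the AP-1 motif, TGACTCA or its reverse complement TGAGTCA. AP-1 is a family of transcription factors named after its DNA motif. The sequences are RefSeq's on GRCh38.p14, printed in the direction of transcription, with the motif in capitals. They end at the base before the annotated start, which for LAMA3 is chr18:23872770-23873019 on the plus strand and for LAMB3, at 1 of its 3 starts, chr1:209651375-209651624 on the minus strand.
LAMA3: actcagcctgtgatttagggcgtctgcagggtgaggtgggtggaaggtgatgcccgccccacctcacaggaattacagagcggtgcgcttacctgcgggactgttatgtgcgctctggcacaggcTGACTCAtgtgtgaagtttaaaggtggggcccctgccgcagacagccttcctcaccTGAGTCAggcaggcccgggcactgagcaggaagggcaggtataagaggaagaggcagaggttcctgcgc
LAMB3: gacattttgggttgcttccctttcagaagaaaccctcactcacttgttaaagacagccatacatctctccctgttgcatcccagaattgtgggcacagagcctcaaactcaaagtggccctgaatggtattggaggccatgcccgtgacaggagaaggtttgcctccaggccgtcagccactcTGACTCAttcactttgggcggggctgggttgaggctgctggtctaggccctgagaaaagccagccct

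The LAMA3 sequence held the motif with its first base 125 and 69 bases before the start, and the LAMB3 sequence 67 bases before it. The bases after the start were found at the beginning of an annotated transcript for LAMB3 and not for LAMA3. The LAMA3 start therefore rests on RefSeq alone. RefSeq windows were matched for 22 of the 31 genes, 29 windows in all, and 2 of these windows (6.90%) held the motif, against 4.20% of the 35116 windows of all genes. The motif TGATGNAA, to which ATF4 with a C/EBP partner binds, was found on either strand in 1 of the 29 windows (3.45%), upstream of ITGB5, against 3.14% of all windows. These are matches of letters and not measured binding. ITGA3, ITGA7, ITGA9, ITGAX, ITGB2, ITGB3, ITGB4 and LAMA1 had no window.

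The other laminin alpha chains in starved parental cells followed LAMA3 in direction, with the exception of LAMA2. LAMA5, a widely expressed chain, fell from 316 and 320 CPM to 151 and 145 CPM (log2 -1.10, SE 0.19, adjusted p = 0.00149). LAMA4, a chain of vessel and muscle basement membranes, fell from 3.03 and 2.47 CPM to 0.198 and 0.248 CPM (log2 -3.26, SE 0.49, adjusted p = 0.000729). LAMA1, best known from embryonic basement membranes, fell from 33.3 and 34.1 CPM to 20.4 and 21.2 CPM (log2 -0.69, SE 0.24, adjusted p = 0.0334). LAMA2, the muscle chain, had 0.809 and 0.799 CPM in control and 1.19 and 1.56 CPM in starved cells, a rise by log2 0.73 (SE 0.24, adjusted p = 0.0290) that rests on few counts and did not pass under upper quartile or total count scaling, with DESeq2, or without either parental control library or parental starved replicate 2.

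Among further laminin chains in parental cells, LAMB1 and LAMB2 did not pass the test. LAMB1 had 39.6 and 38.1 against 31.6 and 31.8 CPM (adjusted p = 0.273), and LAMB2 had 278 and 278 against 273 and 257 CPM (log2 -0.07, 95% confidence interval -0.64 to 0.50, adjusted p = 0.818). LAMC1, the gamma chain of most laminins, fell from 306 and 290 CPM to 185 and 184 CPM (log2 -0.69, SE 0.24, adjusted p = 0.0337). LAMB4, a chain of unclear function, fell from 4.86 and 3.75 CPM to 1.62 and 1.45 CPM (log2 -1.45, SE 0.28, adjusted p = 0.00273). Like ITGA6, LAMA1 and LAMC1 did not pass the test when any 1 of the parental or starved ρ0 libraries was left out.

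The second comparison asked how ρ0 cells changed under the same starvation. Of the 31 genes, 6 rose, 3 fell and 22 did not pass the test, against 19.2% of all tested genes that rose and 22.1% that fell. Adding the fold criterion left 3 higher and 2 lower. The median log2 fold change was 0.13, against -0.02 over all tested genes, and it was 0.20 without 3 genes that had 3 counts or fewer in both libraries of a group. The groups did not overlap for 18 of the 31 genes, against 67.5% of all tested genes. Where the ρ0 groups were fitted alone, the calls of ITGB3, ITGB5, ITGB8 and LAMC1 were lost. The counts of called genes depended on the 2 ρ0 control libraries. Without ρ0 control replicate 1, 15 genes rose and 5 fell, and without replicate 2, 7 rose and 10 fell.

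ITGA3 and LAMB3 rose in starved ρ0 cells, also with either control library left out. LAMB3 rose from 995 and 1041 CPM to 2110 and 2133 CPM (log2 1.06, SE 0.08, adjusted p = 0.000158), and its log2 fold change was 1.03 and 1.10 without the first and second control library. ITGA3 rose from 2299 and 1737 CPM to 3397 and 3357 CPM (log2 0.74, SE 0.13, adjusted p = 0.00392), with 0.96 and 0.57 likewise. Both genes passed the test in all 18 alternative settings that gave fold changes. LAMA3 had 85.0 and 57.3 CPM in control and 51.9 and 53.3 CPM in starved ρ0 libraries and did not pass (log2 -0.43, SE 0.17, adjusted p = 0.0770).

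LAMC1, ITGB3 and ITGA9 also rose in starved ρ0 cells. LAMC1 had 621 and 340 CPM in control and 809 and 792 CPM in starved libraries (log2 0.74, SE 0.24, adjusted p = 0.0412), with log2 fold changes of 1.24 and 0.38 without control replicates 1 and 2. ITGB3, the partner of ITGAV in a receptor for vitronectin and other matrix proteins, had 22.1 and 19.5 against 27.5 and 28.9 CPM (log2 0.44, SE 0.11, adjusted p = 0.0175), with 0.53 and 0.36 likewise. ITGA9 had 0.139 and 0.0965 against 0.439 and 0.248 CPM and passed narrowly (adjusted p = 0.0487), and did not pass without either control library.

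ITGB5, ITGB8 and ITGAM fell in starved ρ0 cells. ITGB5 went from 243 and 166 CPM to 119 and 116 CPM (log2 -0.80, SE 0.16, adjusted p = 0.00657), with log2 fold changes of -0.50 and -1.03 without control replicates 1 and 2. ITGB8 went from 6.38 and 1.99 CPM to 1.12 and 1.08 CPM (log2 -1.86, SE 0.51, adjusted p = 0.0231), and its fold change was -0.82 or -2.45 depending on which control library was left out. ITGAM had 32 counts in the 2 control libraries and 6 in the 2 starved libraries, a 4.78-fold difference with a counting interval of 1.97 to 14.0, and did not pass without control replicate 2 (adjusted p = 0.233). Without either starved ρ0 library, ITGA3 and LAMB3 passed the test, and the calls of LAMC1, ITGB3, ITGA9, ITGB5, ITGB8 and ITGAM were lost. Those of LAMC1, ITGA9 and ITGAM were also lost without any 1 of the parental libraries.

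Most genes did not pass the test in ρ0 cells with both control libraries, and for several the direction depended on which of these was used. ITGA6 had 1165 and 587 CPM in the ρ0 control libraries, on both sides of the 958 and 962 CPM in the starved libraries, and its log2 fold change was 0.71 without control replicate 1 and -0.27 without replicate 2. ITGA2 had 776 and 457 CPM in control and 785 and 799 CPM in starved ρ0 cells (log2 0.36, SE 0.22, adjusted p = 0.223), with 0.79 and 0.04 without control replicates 1 and 2. ITGB4 had 600 and 317 against 306 and 305 CPM (log2 -0.59, SE 0.26, adjusted p = 0.104), with -0.05 and -0.96 without control replicates 1 and 2. ITGA1 and ITGA10 were also bracketed by their control libraries, at 45.6 and 20.6 against 27.3 and 27.9 CPM for ITGA1 and at 6.76 and 3.15 against 4.22 and 3.98 CPM for ITGA10. LAMA5 had 811 and 510 against 744 and 751 CPM (log2 0.18, 95% confidence interval -0.26 to 0.62, adjusted p = 0.481). ITGB1, the common beta subunit, had 1049 and 641 against 1140 and 1148 CPM (log2 0.44, SE 0.20, adjusted p = 0.121), and ITGA5 had 774 and 374 against 857 and 844 CPM (log2 0.57, SE 0.28, adjusted p = 0.145). Without control replicates 1 and 2, the log2 fold change was 0.84 and 0.14 for ITGB1 and 1.18 and 0.15 for ITGA5. Both were called higher with limma-voom weighted by group, and neither was called where the ρ0 groups were fitted alone. The other genes that did not pass the test in ρ0 cells were ITGA2B, ITGA7, ITGAE, ITGAV, ITGAX, ITGB2, ITGB7, LAMA1, LAMA2, LAMA4, LAMB1, LAMB2 and LAMB4.

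**Figure D2:**
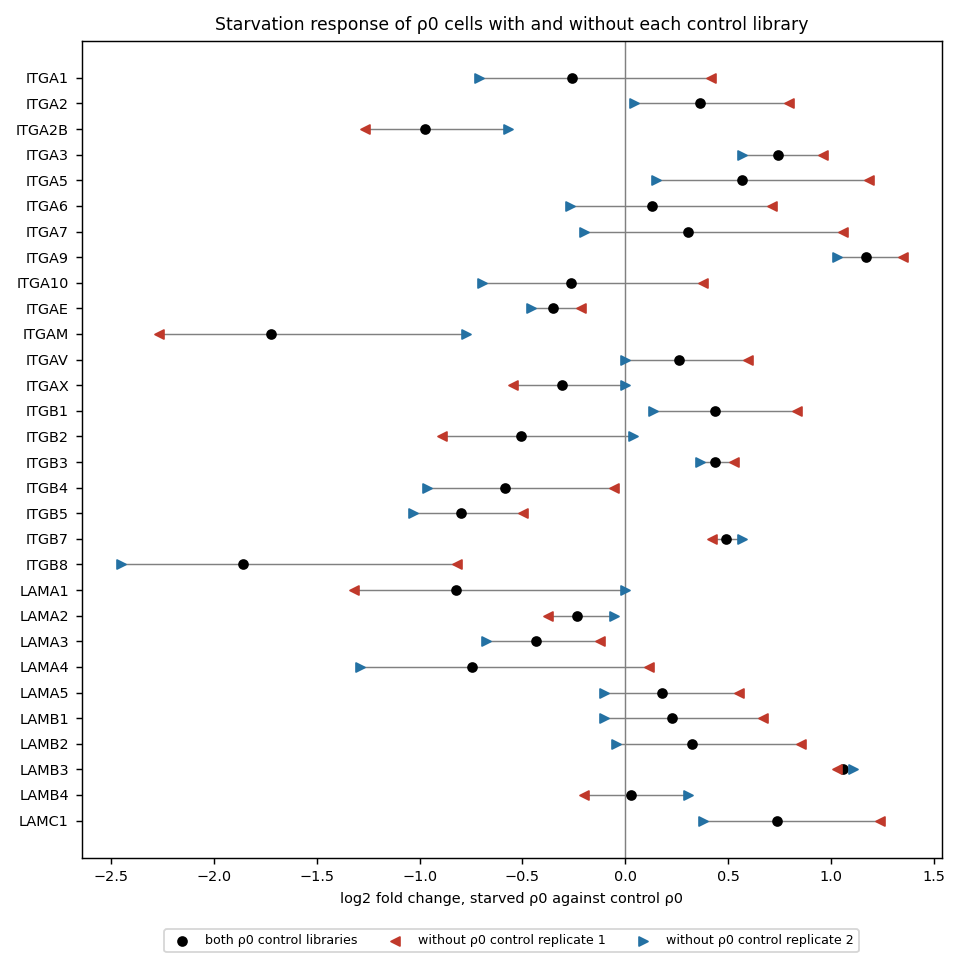
Log2 fold change of starved against control ρ0 cells by gene, with both ρ0 control libraries (black circles) and with either one left out (red and blue triangles, joined by a line). LAMB3 stayed between 1.03 and 1.10, whereas ITGA6 ran from -0.27 to 0.71 and ITGB8 from -2.45 to -0.82.

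The difference between the responses was tested as an interaction, the log2 fold change of starvation in ρ0 cells minus that in parental cells. It was positive for 14 of the 31 genes, negative for 1 and did not pass the test for 16, against 21.6% of all tested genes above and 18.8% below 0. The median difference was 1.15, against 0.02 over all tested genes, and 1.12 without 4 genes that had 3 counts or fewer in both libraries of a group. Without ρ0 control replicate 1 the counts were 22 above and 3 below, and without replicate 2 they were 17 and 1. The 2 responses share no library, but the control libraries of both also enter the comparison of the control groups.

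The largest difference was that of ITGB4, which was 4.93 (SE 0.42, adjusted p = 0.000354) and stayed between 4.52 and 5.47 with either ρ0 control library left out. The collagen-binding subunits all differed, ITGA10 by 4.11 (SE 0.43, adjusted p = 0.000719), ITGA2 by 3.04 (SE 0.32, adjusted p = 0.000709) and ITGA1 by 2.29 (SE 0.45, adjusted p = 0.00670). Of the laminin-binding subunits, ITGA7 differed by 3.98 and ITGA3 by 1.06, whereas ITGA6 did not pass (0.94, SE 0.38, adjusted p = 0.0876). The ρ0 libraries of ITGA7 held under 0.5 CPM each. ITGA10 was also low in ρ0 control libraries, at 6.76 and 3.15 CPM. It had 65.7 and 68.2 CPM in parental control and 3.17 and 3.15 CPM in starved parental libraries. The part of these low ρ0 control levels in the differences of ITGA7 and ITGA10 was not tested. ITGB3 differed by 3.34, ITGB5 by 1.84 and ITGA9 by 2.36. Without ρ0 control replicates 1 and 2, the difference was 4.76 and 3.64 for ITGA10, 4.73 and 3.43 for ITGA7, 3.47 and 2.68 for ITGA2, 2.97 and 1.80 for ITGA1 and 2.15 and 1.57 for ITGB5.

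Among laminins, LAMA4 differed by 2.52 (SE 0.69, adjusted p = 0.0234), LAMC1 by 1.43, LAMA5 by 1.28 and LAMB3 by 0.62 (SE 0.11, adjusted p = 0.00436). Without ρ0 control replicates 1 and 2, the difference was 3.39 and 1.94 for LAMA4, 1.94 and 1.03 for LAMC1 and 1.66 and 0.96 for LAMA5. LAMB3 rose in both lines, and more in ρ0 cells. LAMA3 had a difference of 0.69 that did not pass (95% confidence interval 0.13 to 1.25 before adjustment, adjusted p = 0.0547). ITGAE was the 1 gene with a negative difference, -0.84 (SE 0.18, adjusted p = 0.00972), having risen in parental cells and measured 27.2 and 22.8 CPM in control and 19.7 and 19.5 CPM in starved ρ0 cells. Of the 8 fits that left out 1 library, the call of LAMA4 was lost in 6 and that of LAMC1 in 4, that of ITGAE without parental starved replicate 2 and that of ITGA9 without ρ0 starved replicate 1.

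**Figure D3:**
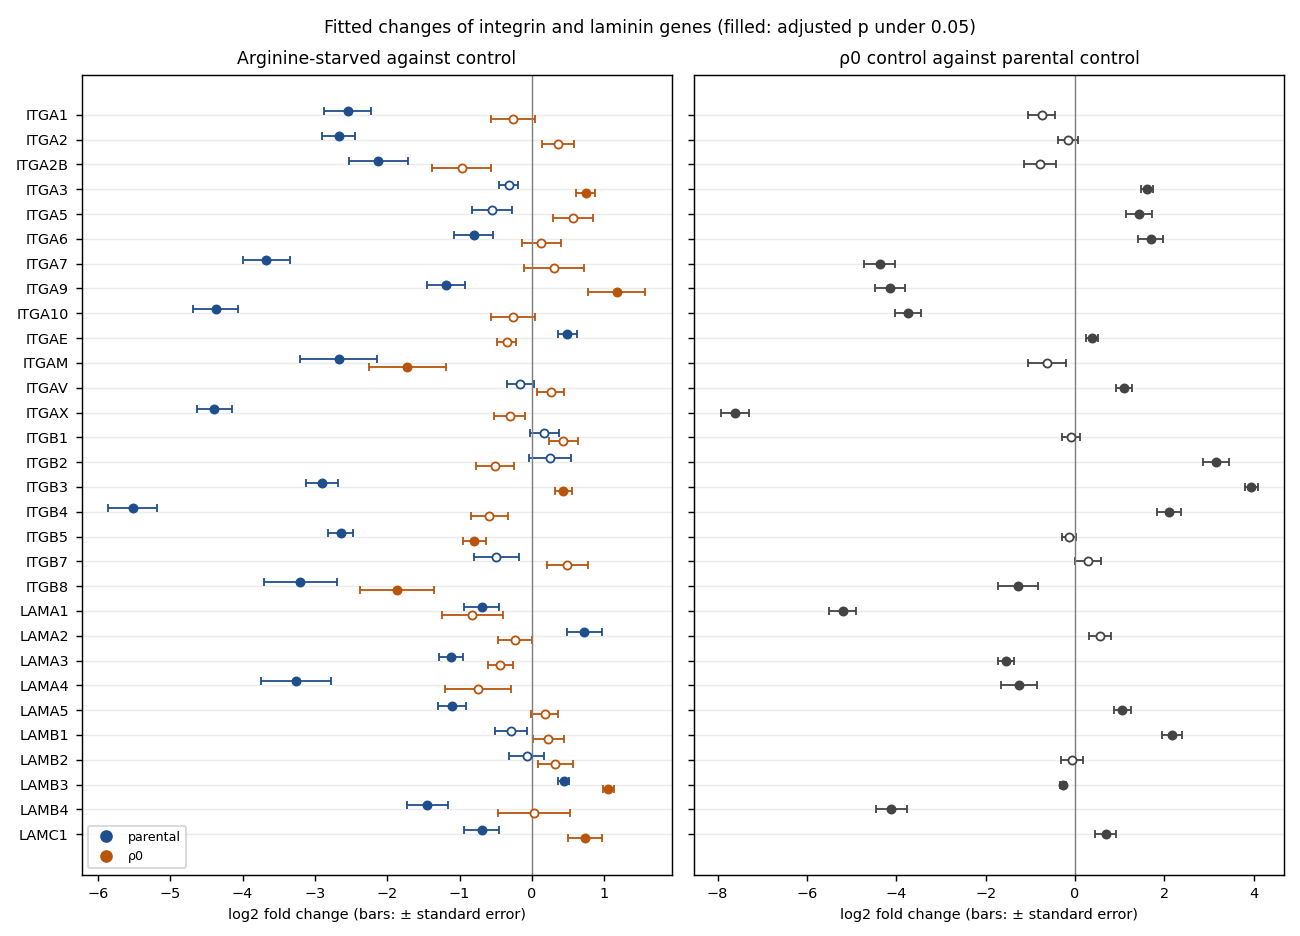
Log2 fold change on starvation in parental and in ρ0 cells, and of ρ0 control against parental control cells, by gene, with standard errors and with filled symbols for an adjusted p under 0.05. Values of genes with 3 counts or fewer in a group depend on the prior count. In parental cells most filled symbols lie below 0, with ITGB4 lowest at -5.52, and in ρ0 cells ITGB5, ITGB8 and ITGAM have filled symbols below 0.

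The fourth comparison set ρ0 control cells against parental control cells. Of the 31 genes, 12 were higher, 10 were lower and 9 did not pass the test, against 30.5% of all tested genes that were higher and 31.8% that were lower. With the fold criterion, 10 were higher and 9 lower. The median log2 fold change was -0.08, against -0.01 over all tested genes. The groups did not overlap for 25 of the 31 genes, against 77.1% of all tested genes. All 22 called genes kept their direction without either ρ0 control library. Since the 1 library left adds nothing to the spread, calls in such a fit cannot show that a result holds. ITGA2, ITGB1, ITGB5 and LAMB2 were lower in the fit without replicate 1 and higher in the fit without replicate 2. Where the 2 control groups were fitted alone, which keeps the spread of the ρ0 control libraries, 17 calls were kept. Those of ITGAE, ITGB8, LAMA4, LAMB3 and LAMC1 were lost. Without single libraries of the other groups the calls of ITGB8 and LAMC1 were lost in all 6 fits, that of LAMA4 and that of LAMB3 in 4, and that of ITGAE in 2.

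Genes higher in ρ0 control cells included ITGB4, ITGA6 and ITGA3, which bind laminin as parts of receptors. ITGB4 had 600 and 317 CPM in ρ0 control against 109 and 104 CPM in parental control cells (log2 2.11, SE 0.27, adjusted p = 0.000338). ITGA6 had 1165 and 587 against 286 and 255 CPM (log2 1.69, SE 0.28, adjusted p = 0.00122), and ITGA3 had 2299 and 1737 against 654 and 671 CPM (log2 1.61, SE 0.13, adjusted p = 4.60e-05). ITGA5 and ITGAV were higher by 1.43 and 1.09 on the log2 scale. Without ρ0 control replicates 1 and 2, the log2 fold change was 1.58 and 2.55 for ITGB4, 1.12 and 2.16 for ITGA6, 1.39 and 1.85 for ITGA3, 0.81 and 1.91 for ITGA5 and 0.76 and 1.42 for ITGAV. ITGB3 was 15.4-fold higher, at 22.1 and 19.5 against 1.29 and 1.28 CPM (log2 3.95, SE 0.14, adjusted p = 1.23e-06). ITGB2 was 8.83-fold higher, at 32.2 and 60.8 against 5.34 and 5.07 CPM (log2 3.14, SE 0.29, adjusted p = 7.22e-05). ITGB2-AS1, which shares 6.29% of the exonic bases of ITGB2 on the opposite strand, averaged 5.29 CPM in ρ0 and 1.28 CPM in parental control cells, and its part in the ITGB2 counts was not tested.

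The integrin genes that were lower in ρ0 control cells had at most 68.2 CPM in the libraries compared. ITGAX had 1046 counts in the 2 parental control libraries and 1 in the 2 ρ0 control libraries, a ratio of 1009 with a 95% counting interval of 181 to 39875, and 0 in both starved ρ0 libraries. ITGAX, ITGA9 and LAMB4 reached 10 counts in both libraries of the parental groups only, so that their choice by the count minimum rests on the line in which they were high. ITGA7 was 20.7-fold lower (log2 -4.37, SE 0.34, adjusted p = 3.31e-05), at 0.486 and 0.161 CPM against 7.94 and 8.02 CPM. ITGA9 and ITGA10 had log2 fold changes of -4.14 and -3.74. Without ρ0 control replicates 1 and 2, the log2 fold change was -5.12 and -3.80 for ITGA7 and -4.38 and -3.24 for ITGA10. ITGB8 had 6.38 and 1.99 against 11.2 and 9.13 CPM (log2 -1.27, SE 0.44, adjusted p = 0.0371), and without control replicates 1 and 2 its log2 fold change was -2.32 and -0.62. ITGA2, ITGB1 and ITGB5 did not pass with both libraries, with ITGB1 at -0.48 without replicate 1 and 0.28 without replicate 2.

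The laminin alpha chains split between the lines. LAMA5 was higher in ρ0 control cells, at 811 and 510 against 316 and 320 CPM (log2 1.06, SE 0.19, adjusted p = 0.00198). LAMA1 was 36.9-fold lower, at 0.451 and 1.22 against 33.3 and 34.1 CPM (log2 -5.20, SE 0.31, adjusted p = 1.07e-05), and LAMA3 was 2.92-fold lower, at 85.0 and 57.3 against 221 and 196 CPM (log2 -1.55, SE 0.17, adjusted p = 0.000177). LAMA4 was lower (log2 -1.25, adjusted p = 0.0267). LAMB1 was higher by 2.16 (SE 0.23, adjusted p = 0.000129) and LAMC1 by 0.69 (SE 0.24, adjusted p = 0.0364). LAMB3 was slightly lower (log2 -0.27, SE 0.08, adjusted p = 0.0153), and LAMB4 was lower (log2 -4.11) with 4 and 7 counts in the ρ0 control libraries. LAMB2 had 346 and 184 against 278 and 278 CPM (adjusted p = 0.819). Without ρ0 control replicates 1 and 2, the log2 fold change was 0.68 and 1.41 for LAMA5, -4.71 and -5.96 for LAMA1, -1.86 and -1.24 for LAMA3, -2.12 and -0.65 for LAMA4, 1.72 and 2.56 for LAMB1 and 0.19 and 1.11 for LAMC1. Besides LAMB2, the genes that did not pass were ITGA1, ITGA2, ITGA2B, ITGAM, ITGB1, ITGB5, ITGB7 and LAMA2.

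Levels were next compared between genes, as CPM per kilobase of the longest annotated protein-coding transcript, given as group means. In parental control cells the leading subunits were ITGA3 (135) and ITGA2 (87.3) among integrin alpha subunits, ITGB1 (237) among beta subunits, LAMA5 (27.8) and LAMA3 (19.5) among laminin alpha chains and LAMB3 (286) among beta chains. LAMC1 stood at 37.8 in control and 23.4 in starved parental cells, and at 60.9 and 101 in control and starved ρ0 cells. In starved ρ0 cells LAMA5 stood at 65.4 against 4.94 for LAMA3. The per-kilobase values use 1 transcript per gene, and other isoforms would change them.

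Within the integrin and the laminin alpha and beta classes the shares of this per-kilobase level shifted. ITGB1 held 77.5% and 75.6% of the integrin beta level in the 2 parental control libraries, 96.1% in both starved parental libraries, 61.5% and 59.4% in ρ0 control and 75.7% and 75.9% in starved ρ0 libraries. ITGB4 made up 18.7% to 22.5% of the class in ρ0 control cells and at most 0.155% in starved parental cells. LAMA5 held between 52.8% and 55.6% of the laminin alpha level in the 4 parental libraries and between 88.6% and 92.7% in the 4 ρ0 libraries. These shares are descriptions and were not tested.

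**Figure D4:**
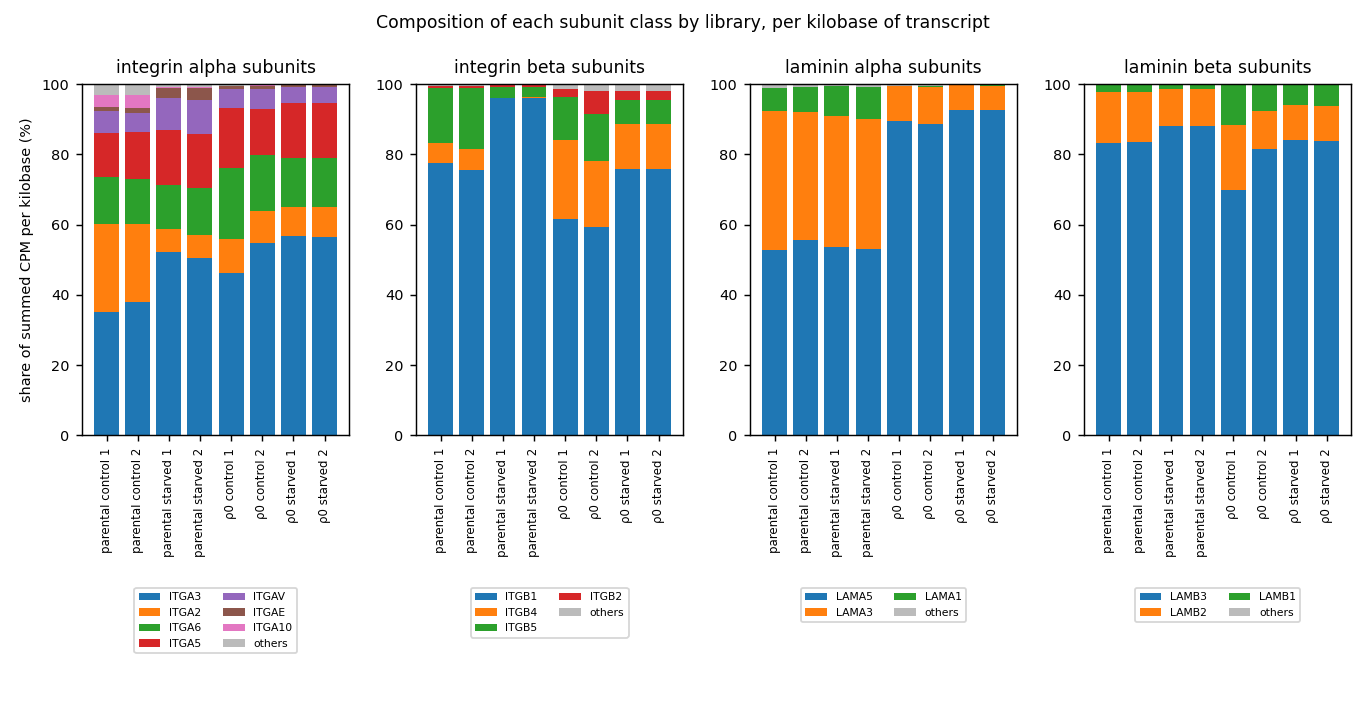
Composition of 4 subunit classes in each library, as the percent of the summed CPM per kilobase of the class (stacked bars, genes under 3% in every library pooled as others). The laminin alpha class was 52.8% to 55.6% LAMA5 in parental and 88.6% to 92.7% in ρ0 libraries, and ITGB1 filled 96.1% of the integrin beta class in starved parental cells.

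Proteins that work with integrins were taken as 3 lists. Of 32 tested genes of the adhesion machinery inside the cell, 15 fell and 5 rose in starved parental cells, with a median log2 fold change of -0.30. Of 15 tested genes for hemidesmosomes, basement membranes and other laminin receptors, 10 fell and 2 rose (median -0.72), and of 18 tested extracellular ligands 10 fell and 1 rose (median -0.63). Over all tested genes 35.5% fell and 30.4% rose, with a median of -0.07. COL17A1, a hemidesmosomal collagen, averaged 12.8 CPM in control and 1.08 CPM in starved parental cells (log2 -3.50, SE 0.24, adjusted p = 2.19e-05). DAG1, which encodes the laminin receptor dystroglycan, fell by 2.13 on the log2 scale (adjusted p = 9.53e-06), AGRN, a laminin-binding proteoglycan, by 1.70 and FN1, fibronectin, by 1.76. TNS4, a focal adhesion protein that binds integrin beta tails, averaged 17.1 CPM in control and 0.093 CPM in starved parental cells. NID2, which links laminin to collagen IV, rose by 1.99 and COL4A6, a chain of collagen IV, by 2.64.

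In starved ρ0 cells 1 machinery gene rose and 11 fell, 3 genes of the basement membrane list rose and 6 fell, and 2 ligands rose and 4 fell, against 19.2% of all tested genes that rose and 22.1% that fell. The interaction was positive for 12 and negative for 4 machinery genes, positive for 6 and negative for 2 genes of the basement membrane list, and positive for 5 of the 18 ligands, of which the other 13 did not pass, against 21.6% of all tested genes above and 18.8% below 0. In ρ0 against parental control cells, 11 machinery genes were higher and 11 lower, 7 basement membrane genes higher and 3 lower, and 8 ligands higher and 7 lower, against 30.5% and 31.8% of all tested genes. COL7A1, the anchoring fibril collagen, was higher in ρ0 control cells by 4.18 on the log2 scale (SE 0.25, adjusted p = 1.14e-05), and TNS4 averaged 410 against 17.1 CPM. COL4A5 averaged 58.0 CPM in ρ0 control cells and had 0 counts in both parental control libraries. ICAM1, a ligand of the leukocyte integrins, averaged 97.8 against 0.958 CPM (log2 6.58, SE 0.19, adjusted p = 6.51e-07). TNC, a matrix ligand of ITGA9, averaged 21.1 against 472 CPM (log2 -4.49, SE 0.39, adjusted p = 5.34e-05), and TNS1, a focal adhesion protein, 0.035 against 78.0 CPM. The genes of the 3 lists were not re-examined without either ρ0 control library. The lower and higher of these libraries had 129 and 220 CPM for COL7A1, 35.8 and 80.1 for COL4A5 and 11.9 and 30.2 for TNC. They were closer for TNS4 (379 and 441 CPM) and ICAM1 (84.8 and 111 CPM).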

How the data were processed

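RNA-seq libraries were made from total RNA of 8 samples. Raw counts of reads for each gene symbol, not normalized, were deposited by the authors as 1 table. The submitters' processing notes name Bowtie, Partek and hg19, and the annotation, the counting tool and its strand setting are not given in the sources used here. Symbols were matched by their pattern. The members and the partner lists were chosen with earlier results of these data known. Genes of the mitochondrial genome were not analysed here.

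The counts were fitted with edgeR 4.0.16 in R 4.3.3. Genes passing filterByExpr on the 4 groups were kept (15262 of 23393), libraries were scaled by TMM, and glmQLFit and glmQLFTest were run on all 8 libraries with 1 mean per group, which left 4 residual degrees of freedom with a mean prior of 3.40 (biological coefficient of variation 12.4%). P-values were adjusted by Benjamini-Hochberg over all tested genes. Each standard error was obtained as the absolute log2 fold change over the root of its F statistic. Fold changes use a prior count of 2. A gene with 3 counts or fewer in both libraries of a group was given the ratio of its pooled counts with an exact 95% interval, which covers counting error alone. Some genes are not reported here. The named genes were the other members and, from each partner list, at most the 3 largest rises and 3 largest falls among called genes in the parental starvation and the ρ0 against parental comparisons. Transcript lengths and exon overlaps were taken from GENCODE v29 and upstream sequences from RefSeq (GRCh38.p14). The replicates of each group differed by more than sampling noise. Alternatives were other scalings, filters and thresholds, DESeq2 1.42.0, limma-voom (limma 3.58.1), a replicate block, fits to the groups compared and fits without single libraries. After seeing the data, a limma-voom fit weighted by group was added. The scripts' calls were tested on simulated counts, with changes in starved parental cells only and the same spread of each gene in all 4 groups. The simulation therefore does not test calls under the wider spread of the ρ0 control libraries.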

Additional observations from a re-analysis of the deposited data

Results flagged for a closer look

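Genes that responded differently to starvation in the 2 lines by the interaction test are given as the log2 fold change in ρ0 cells minus that in parental cells. Integrin alpha subunits differed by 2.29 (ITGA1), 4.11 (ITGA10), 3.04 (ITGA2), 1.06 (ITGA3), 3.98 (ITGA7), 2.36 (ITGA9) and -0.84 (ITGAE). Integrin beta subunits differed by 3.34 (ITGB3), 4.93 (ITGB4) and 1.84 (ITGB5). Laminin chains differed by 2.52 (LAMA4), 1.28 (LAMA5), 0.62 (LAMB3) and 1.43 (LAMC1). The value of ITGB3 rests on 6 counts in the starved parental libraries, and that of LAMA4 on 5 and 7 counts there. In the ρ0 control libraries, ITGA9 had 4 and 3 counts and ITGA7 had 14 and 5. ITGA10 had 195 and 98 counts there, against 2191 and 1965 in the parental control libraries. All genes flagged here kept their direction without either ρ0 control library, with the differences then between 0.59 and 5.47 for the positive ones.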

How the results depend on the processing

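Scaling by DESeq2's size factors kept all calls in all 4 comparisons. Under upper quartile and total count scaling the median of all tested genes in parental starvation moved from -0.07 to -0.19 and -0.23, and that of the 31 genes from -1.12 to -1.24 and -1.28. In parental starvation, the 3 higher genes became 0 with the fold criterion and 1 at an adjusted p under 0.01, and were 1 to 5 when single libraries were left out. The 20 lower genes became 13 where at least 10 counts in every library were required, since fewer genes were tested. In ρ0 starvation, the 6 higher genes became 3 with the groups compared fitted alone, with the fold criterion and at an adjusted p under 0.01, and 3 to 15 with 1 library left out. The 3 lower genes became 5 under total count scaling, 1 with limma-voom, 0 with the groups compared fitted alone, 1 at an adjusted p under 0.01 and 0 to 10 with 1 library left out. For the interaction, the 14 positive differences became 11 to 22 and the 1 negative one 0 to 3 with 1 library left out, and the latter became 2 with the stricter count filter, 2 with limma-voom weighted by group and 0 with the fold criterion. The 10 genes lower in ρ0 than in parental control cells became 5 with the stricter count filter. Beyond the filters and thresholds, the cause was not tested.

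The sign of some log2 fold changes turned when 1 library was left out. In ρ0 starvation the ranges were -0.71 to 0.42 for ITGA1, -0.70 to 0.38 for ITGA10, -0.27 to 0.71 for ITGA6, -0.20 to 1.06 for ITGA7, -0.89 to 0.038 for ITGB2, -1.29 to 0.12 for LAMA4, -0.11 to 0.55 for LAMA5, -0.10 to 0.67 for LAMB1, -0.046 to 0.85 for LAMB2 and -0.56 to 0.52 for LAMB4, which was also -0.0297 under total count scaling, -0.0604 with limma-voom and -0.0680 with weights per group. For the interaction they were -0.075 to 0.67 for ITGB1, -0.62 to 0.66 for LAMA1 and -0.014 to 0.93 for LAMB2. For ρ0 against parental control they were -0.59 to 0.23 for ITGA2, -0.48 to 0.28 for ITGB1, -0.43 to 0.17 for ITGB5 and -0.59 to 0.37 for LAMB2. The replicate numbers did not pair the samples (correlations of deviations between -0.12 and 0.07), and with the replicate block 5 genes rose and 3 fell in ρ0 starvation, with ITGA9 the 1 call lost in the 4 comparisons.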
